A study of Homo sapiens with 6 samples.

Results

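The genes described here are 45 listed members of 4 families of developmental transcription factors: PAX, SOX, T-box and HAND. Counts and medians by family are over the listed genes only. They were chosen by name, as the rows of the deposited table whose symbol is one of 45 listed genes out of 60546 gene identifiers. The rule uses names alone, but the list was drawn up with earlier results of these data known. The list holds 9 PAX genes, 19 SOX genes, 15 T-box genes (the TBX genes with EOMES and TBR1) and 2 HAND genes. RNA was sequenced from 6 samples, 3 named HCT-116-PMSCV-GOLPH3 and 3 named HCT-116-PMSCV-Vector, to ask which transcripts differ when the Golgi phosphoprotein GOLPH3 is overexpressed. The cells are HCT-116, a long-established line from a human colon carcinoma, grown in DMEM with fetal bovine serum and given the genotype wild type in the labels. Both groups carried a viral PMSCV construct, with human GOLPH3 cDNA in one and no insert in the other, and were selected with puromycin into stable lines. Each group is a single such line sampled at 3 generations, so the p-values below measure the spread between samples of one line, which may be technical. The titles number the libraries labelled GOLPH3 as P8, P12 and P13 (replicates 1, 2 and 3) and those labelled Vector as P12, P11 and P13, and what P stands for is not given. Values of 3 libraries are always given in the order of replicates 1, 2 and 3.

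PAX, SOX, T-box and HAND proteins bind DNA through the paired domain, the HMG box, the T-box and the basic helix-loop-helix domain, respectively. They are best known from the embryo, where they set out the regions and cell types of the neural tube, neural crest, somites, heart, limbs and urogenital tract. Most are silent in adult gut epithelium, with SOX9 a known exception, since it is made by the stem and progenitor cells of the intestinal crypt.

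The libraries held between 15708846 and 21900764 recovered reads. Levels are given as normalized reads, that is, counts of reads over 1 size factor for each library, uncorrected for gene length. A gene without reads could still have had up to 3 reads, or between 2.47 and 3.29 normalized reads according to its library, and this limit covers counting error only. The GOLPH3 transcript had 1630, 1272 and 1383 normalized reads under the label GOLPH3 against 1968, 1892 and 1472 under Vector. Its log2 fold change was -0.31 (adjusted p = 0.609, limma with Benjamini-Hochberg adjustment), so it was not detectably higher under the GOLPH3 label, and both groups are called by their labels below. The 10 colon epithelial markers that could be tested included KRT18 and KRT19, the keratins that rose in the GOLPH3 libraries, and none that fell. KRT20, a marker of differentiated colon epithelium, had no reads in any library.

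Far more of these factors were lower than higher in the GOLPH3 libraries. A factor could enter the test through reads under a single label. Of the 36 that entered, 13 fell (adjusted p under 0.05, limma on log2 of the normalized reads plus 1), 1 rose and 22 did not pass the test. Over all 26536 genes tested, 4.12% fell and 0.953% rose. The genes that fell were PAX1, PAX3, PAX6, PAX7, SOX2, SOX5, SOX6, SOX21, TBX1, TBX2, TBX20, HAND1 and HAND2, and the one that rose was SOX9. At an unadjusted p under 0.05 the counts were 16 lower and 2 higher. The share of all genes at that threshold is not given here, and 4.12% and 0.953% are not its background. When 1 normalized read was required in every library, 23 factors were tested, 4 fell and 0 rose. That filter removes genes without reads under one label. The share of all genes called under it is not given here, so 4 of 23 has no background beside it. The median log2 fold change of the 36 genes was -0.55, against 0.02 for all genes tested. By family the median was -1.43 for 8 PAX genes, -0.12 for 14 SOX genes, -0.42 for 12 T-box genes and -6.70 for the 2 HAND genes. The fold change of a gene without reads depends on the added constant, and with such genes set at their lower bound the HAND median was -5.24 while the other medians did not change.

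For 7 of the 13 lower genes the difference was between no read and many: PAX1, PAX3, SOX5, SOX21, TBX20, HAND1 and HAND2 had no read in any library labelled GOLPH3 and reads in every library labelled Vector. This pattern was found in 563 of the 26536 genes tested (2.12%). The opposite pattern, no read in any library labelled Vector and reads in every library labelled GOLPH3, was found in 121 genes (0.456%) and in 0 of these factors. In bulk RNA, fewer cells of a type and less RNA per cell cannot be told apart, and this holds for every level given here.

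**Figure D1:**
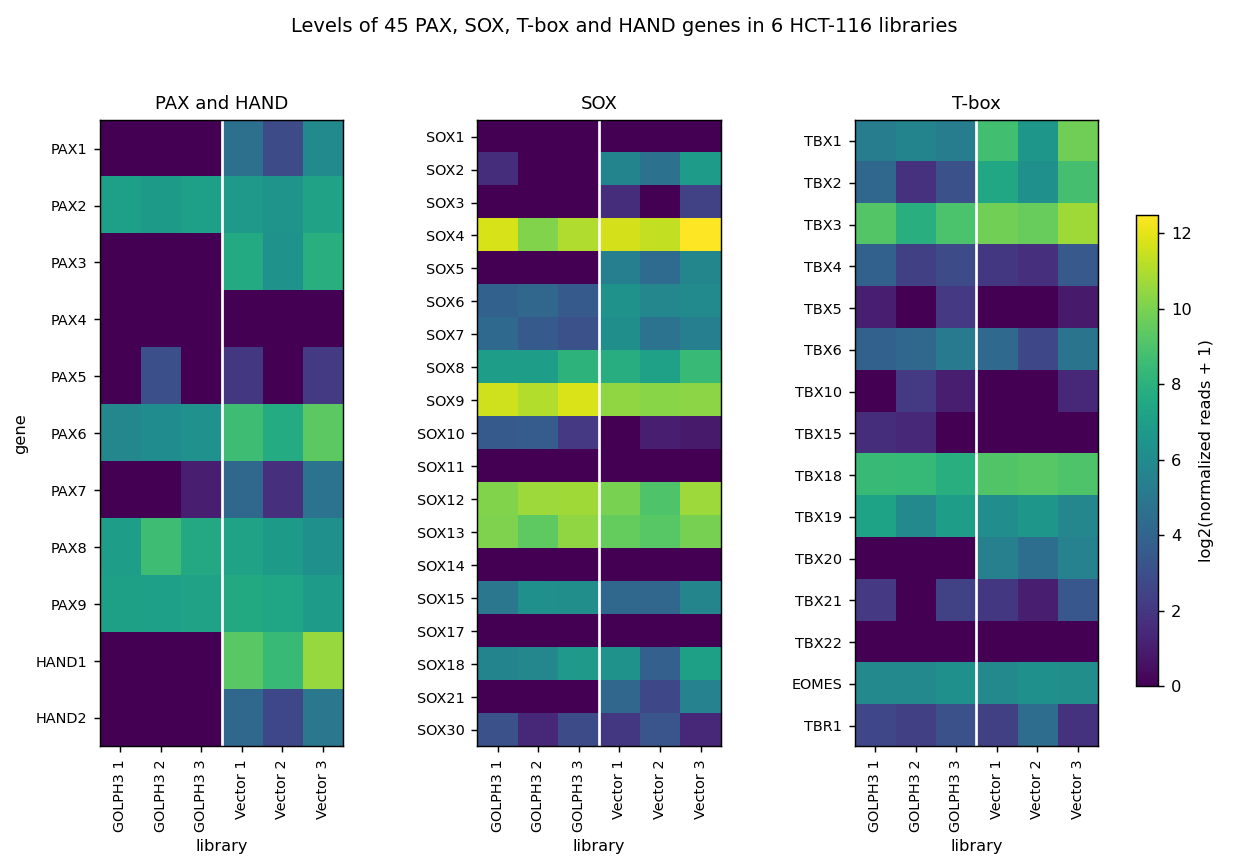
Each column is one of the 6 libraries and each row one of the 45 factors, grouped by family, with the colour giving log2(normalized reads + 1). HAND1 and PAX3 are at 0 in the 3 libraries labelled GOLPH3 and between 82.2 and 1515 normalized reads in the Vector libraries, while SOX9, SOX4 and SOX12 are high in all 6.

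The DNA just before the transcription start of 4 genes that fell is shown beside that of 2 that did not pass the test. It shows the letters behind the CG counts given next. These genes were picked by hand, and their counts do not stand for the sets, whose medians are in the next paragraph. The sequences are from RefSeq on GRCh38.p14, run 5′ to 3′ on the strand of the gene and are cut where the GENCODE gene begins. Capitals mark CG dinucleotides, the sites at which human DNA is methylated.
HAND1, chr5:154478265-154478477, minus strand: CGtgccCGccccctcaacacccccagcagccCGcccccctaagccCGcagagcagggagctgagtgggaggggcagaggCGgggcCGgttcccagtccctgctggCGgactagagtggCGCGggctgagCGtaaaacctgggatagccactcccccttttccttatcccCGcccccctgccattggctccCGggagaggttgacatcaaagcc
PAX3, chr2:222298999-222299248, minus strand: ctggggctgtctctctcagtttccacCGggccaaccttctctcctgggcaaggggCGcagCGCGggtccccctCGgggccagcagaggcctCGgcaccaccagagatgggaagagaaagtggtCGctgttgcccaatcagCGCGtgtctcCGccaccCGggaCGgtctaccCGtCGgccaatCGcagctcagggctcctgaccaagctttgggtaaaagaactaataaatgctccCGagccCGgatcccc
SOX2, chr3:181711675-181711923, plus strand: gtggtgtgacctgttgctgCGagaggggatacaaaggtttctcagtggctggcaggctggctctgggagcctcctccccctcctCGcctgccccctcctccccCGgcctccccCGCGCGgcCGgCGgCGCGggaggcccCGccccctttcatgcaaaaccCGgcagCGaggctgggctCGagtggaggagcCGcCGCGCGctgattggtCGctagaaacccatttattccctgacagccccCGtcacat
TBX20, chr7:35254148-35254350, minus strand: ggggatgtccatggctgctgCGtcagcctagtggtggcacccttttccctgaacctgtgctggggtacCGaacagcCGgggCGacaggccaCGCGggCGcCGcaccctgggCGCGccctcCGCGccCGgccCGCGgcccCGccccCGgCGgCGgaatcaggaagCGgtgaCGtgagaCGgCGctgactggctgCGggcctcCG
PAX9, chr14:36657318-36657567, plus strand: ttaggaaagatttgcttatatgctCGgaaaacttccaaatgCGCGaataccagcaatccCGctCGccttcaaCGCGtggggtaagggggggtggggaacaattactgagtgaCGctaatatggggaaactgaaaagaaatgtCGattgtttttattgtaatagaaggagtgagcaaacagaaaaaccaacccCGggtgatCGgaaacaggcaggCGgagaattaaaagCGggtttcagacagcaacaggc
TBX19, chr1:168280627-168280876, plus strand: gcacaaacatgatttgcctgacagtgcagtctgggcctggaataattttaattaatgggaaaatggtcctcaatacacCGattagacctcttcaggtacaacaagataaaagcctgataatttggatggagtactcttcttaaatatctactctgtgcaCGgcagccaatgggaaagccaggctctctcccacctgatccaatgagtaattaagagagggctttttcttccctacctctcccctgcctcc
The stretches before HAND1, PAX3, SOX2 and TBX20 held 12, 17, 20 and 25 CG dinucleotides in 213, 250, 249 and 203 bases. PAX9, whose groups overlapped, had 13 in 250 bases. TBX19 had 2, so CG density differed widely among factors that were transcribed in both groups. DNA methylation was not measured in these samples.

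RefSeq promoters were found for 32 of the 45 factors, and the 250 bases before the start were compared. The median number of CG dinucleotides was 17 over the 11 promoters of genes that fell, with a range from 11 to 31. It was 15 over the 21 promoters of genes that were not called or not tested, with a range from 1 to 42, and 11 over all 27303 promoters of the same length. The 3 motifs given next were searched by their letters alone on both strands, and overlapping matches were allowed. CANNTG, the E-box bound by basic helix-loop-helix proteins, was in 4 of the 11 promoters of lower genes, in 14 of the other 21 and in 62.21% of all promoters. ACAAT, part of the SOX recognition site, was in 2 of the 11 and in 25.25% of all promoters. GGTGTGA, the core of the T-box element, was in 1 of the 11, that of SOX2, and in 2.718% of all promoters. A match is a description of the letters in this window and not of a bound site.

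The HAND genes encode basic helix-loop-helix factors of the heart, the neural crest and extraembryonic tissue, and both fell. HAND1 (ENSG00000113196, chr5:154474972-154478264, minus strand) had no read in the GOLPH3 libraries and 629, 359 and 1515 normalized reads in the Vector libraries. It was therefore at least 259-fold lower, taking the mean of 834 ± 604 (SD, n = 3) against the highest limit of a library without reads, and its fitted log2 fold change was -9.45 (SE 0.58, adjusted p = 2.47e-06). This was the lowest fold change among the 36 factors tested. HAND2 (ENSG00000164107, chr4:173524969-173530229, minus strand), its close relative, had no read in the GOLPH3 libraries and 17.5, 5.48 and 30.0 normalized reads in the Vector libraries. It was at least 5.49-fold lower on the same measure, with a fitted log2 fold change of -3.95 (SE 0.71, adjusted p = 0.00517). This and every other such bound rests on the Vector mean and leaves out the spread between Vector libraries. The groups did not overlap for either gene.

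The PAX family is divided by structure into 4 subgroups. PAX1 and PAX9 pattern the sclerotome and the pharyngeal pouches. PAX1 (ENSG00000125813, chr20:21705659-21718486, plus strand) had no read in the GOLPH3 libraries and 23.7, 6.57 and 59.2 normalized reads in the Vector libraries, at least 9.26-fold lower (fitted log2 fold change -4.49, SE 0.78, adjusted p = 0.00389). PAX9 (chr14:36657568-36679715, plus strand) had 136, 130 and 145 normalized reads against 190, 163 and 121. Its groups overlapped and its log2 fold change was -0.18, with a 95% confidence interval from -0.94 to 0.58 and an adjusted p of 0.838. The pair of closely related genes therefore differed in their values, one without reads under the GOLPH3 label and one with groups that overlapped.

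PAX3 and PAX7 specify neural crest and muscle progenitors. PAX3 (ENSG00000135903, chr2:222199888-222298996, minus strand) had no read in the GOLPH3 libraries and 197, 82.2 and 227 normalized reads in the Vector libraries, a mean of 168 ± 76.2 (SD, n = 3). It was at least 52.3-fold lower, with a fitted log2 fold change of -7.28 (SE 0.60, adjusted p = 1.27e-05). PAX7 (chr1:18631006-18748866, plus strand) was at 0, 0 and 1.07 normalized reads against 17.5, 2.19 and 25.7. The single read under the GOLPH3 label gave a ratio of Vector to GOLPH3 of 49.5, with a counting interval from 8.48 to 1995. Its log2 fold change of -3.19 lay just inside the threshold (SE 0.84, adjusted p = 0.0498) and passed it in 5 of the 16 alternative settings that gave it a value, and of the libraries left out in turn only Vector replicate 2 left it called.

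PAX4 and PAX6 act in the pancreas and eye, where PAX6 is required for eye formation. PAX6 (ENSG00000007372, chr11:31784779-31818062, minus strand) was read in every library, with 53.7, 67.6 and 80.1 normalized reads under the GOLPH3 label and 386, 206 and 661 under Vector. The lowest Vector library was above the highest GOLPH3 library, and the log2 fold change was -2.48 (SE 0.44, adjusted p = 0.00464). PAX4 had no read in any library. The last subgroup, PAX2, PAX5 and PAX8, works in kidney, brain and B cells, and none of its members passed the test. PAX2 had 134, 112 and 130 normalized reads against 104, 88.7 and 148, a log2 fold change of 0.17 with an interval from -0.63 to 0.98 (adjusted p = 0.853). PAX8 had 128, 395 and 183 normalized reads against 145, 111 and 75.5, a log2 fold change of 0.97 (interval -0.03 to 1.97, adjusted p = 0.302). PAX8 was highest in GOLPH3 replicate 2, and the groups overlapped. PAX5, a B cell factor, stayed between 0 and 7.42 normalized reads.

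**Figure D2:**
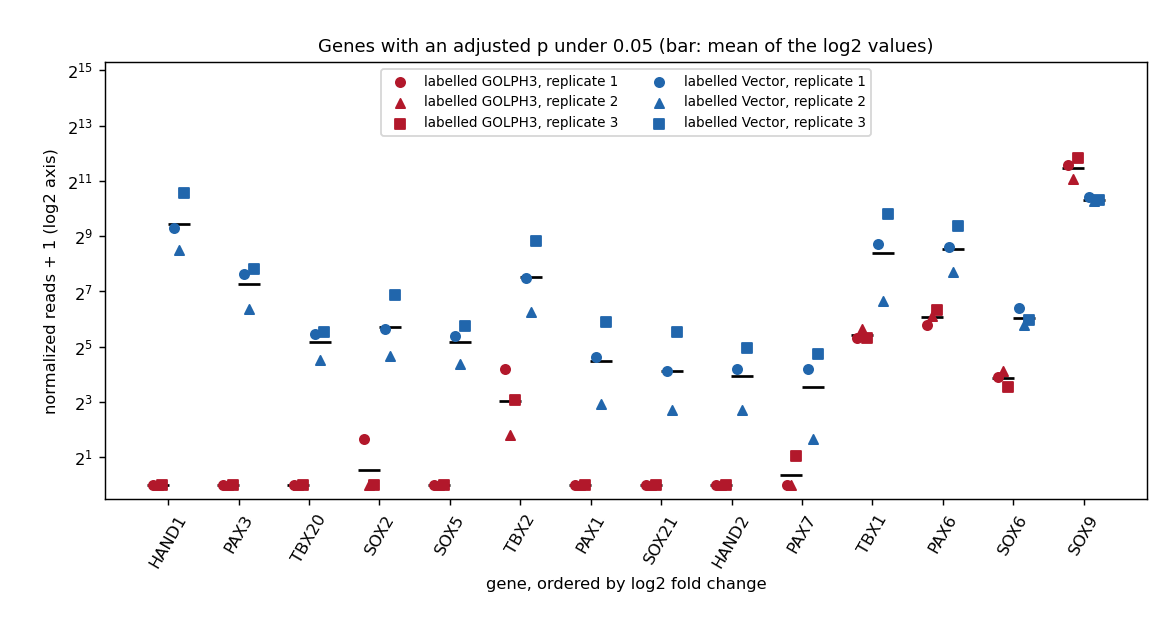
Normalized reads plus 1 on a log2 axis for the 14 factors past the threshold, with 1 point per library and red for the label GOLPH3 and blue for Vector. The 13 lower genes have all 3 blue points above the red ones, SOX9 has all 3 red points above the blue ones, and the lowest blue point of every lower gene is Vector replicate 2.

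SOX genes are grouped by their HMG box. SOXB1 genes (SOX1, SOX2 and SOX3) hold cells in a pluripotent or neural progenitor state, and SOXB2 genes (SOX14 and SOX21) counter them in the neural tube. SOX2 (ENSG00000181449, chr3:181711924-181714436, plus strand) had 2.15, 0 and 0 normalized reads in the GOLPH3 libraries and 49.4, 24.1 and 115 in the Vector libraries. The pooled reads gave a ratio of Vector to GOLPH3 of 103 with a counting interval from 28.2 to 857, and the log2 fold change was -5.17 (SE 0.74, adjusted p = 0.00099). SOX21 (chr13:94709622-94712399, minus strand) had no read under the GOLPH3 label and 16.5, 5.48 and 45.5 normalized reads under Vector, at least 6.98-fold lower (fitted log2 fold change -4.12, SE 0.76, adjusted p = 0.00635). SOX3 was too low to test, with 2.06, 0 and 4.29 normalized reads under Vector and none under GOLPH3. SOX1 and SOX14 had no read in any library.

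The SOXD genes SOX5, SOX6 and SOX13 act in cartilage, neurons and blood as partners of other SOX proteins, and their values differed from one to the next. SOX5 (ENSG00000134532, chr12:23529500-24562544, minus strand) had no read in the GOLPH3 libraries and 41.2, 19.7 and 52.3 normalized reads in the Vector libraries, at least 11.7-fold lower (fitted log2 fold change -5.17, SE 0.63, adjusted p = 0.000265). SOX6 (chr11:15966449-16739591, minus strand) was read throughout, at 14, 16.5 and 10.7 normalized reads against 84.4, 53.7 and 61.8, and fell by 2.20 on the log2 scale (SE 0.48, adjusted p = 0.0181). Without GOLPH3 replicate 3, Vector replicate 1 or Vector replicate 3 the adjusted p of SOX6 was 0.0738, 0.15 and 0.0868. SOX13 had 1075, 664 and 1385 normalized reads against 746, 618 and 991. Its groups overlapped, and the log2 fold change of 0.37 had an interval from -0.37 to 1.11 (adjusted p = 0.627).

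The SOXE genes SOX8, SOX9 and SOX10 act in the neural crest, and SOX9 also in cartilage, testis and the intestinal crypt. SOX9 (ENSG00000125398, chr17:72121020-72126420, plus strand) was the one factor that rose, from 1351, 1235 and 1264 normalized reads in the Vector libraries to 3048, 2146 and 3598 in those labelled GOLPH3. The means were 1283 ± 60.7 and 2931 ± 733 (SD, n = 3), the groups did not overlap, and the log2 fold change was 1.16 (SE 0.28, 95% confidence interval 0.54 to 1.78, adjusted p = 0.0353). The rise passed the threshold in 8 of 18 alternative settings, and leaving out a single library kept the log2 fold change between 1.00 and 1.37 with adjusted p from 0.0282 to 0.17, and only without GOLPH3 replicate 2 did it still pass. SOX10, a factor of glia and melanocytes, was low, with 10.7, 11.5 and 3.20 normalized reads under the GOLPH3 label against 0, 1.10 and 0.858. It was the other gene with every GOLPH3 library above every Vector library, and its log2 fold change was 2.44 (adjusted p = 0.0716). The 3.20 of GOLPH3 replicate 3 is 3 reads, at the limit for a library without reads, so this order rests on few reads. SOX8 overlapped between groups, at 129, 126 and 269 against 222, 141 and 349 normalized reads (log2 fold change -0.44, adjusted p = 0.658).

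The SOXC genes SOX4, SOX11 and SOX12 keep progenitors of neurons and connective tissue growing, and SOX4 is abundant in many carcinomas. SOX4 had 3403, 1112 and 2054 normalized reads under the GOLPH3 label and 3316, 2580 and 5630 under Vector. The groups overlapped through GOLPH3 replicate 1, and the log2 fold change was -0.88 (interval -1.79 to 0.03, adjusted p = 0.305). SOX12 had 1132, 1618 and 1656 normalized reads against 1004, 530 and 1639, a log2 fold change of 0.60 (interval -0.25 to 1.45, adjusted p = 0.475). SOX11 had no read in any library, so the subgroup held a pair of abundant genes beside a silent one.

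Among SOXF genes, which act in vessels and endoderm, SOX7 had 18.2, 10.7 and 7.47 normalized reads against 74.1, 26.3 and 41.2. Every Vector library was above every GOLPH3 library, but the log2 fold change of -1.83 missed the threshold (SE 0.57, adjusted p = 0.101). SOX18 ranged from 48.3 to 104 normalized reads under the GOLPH3 label and from 13.1 to 135 under Vector (log2 fold change 0.27, adjusted p = 0.886, with the sign turned to -0.17 by DESeq2), and SOX17 had no read. SOX15, a factor of muscle and stem cells, had 30.1, 76.7 and 70.5 normalized reads against 17.5, 16.4 and 49.8 (log2 fold change 1.13, adjusted p = 0.348). SOX30, a testis factor, stayed between 1.65 and 8.76 normalized reads.

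**Figure D3:**
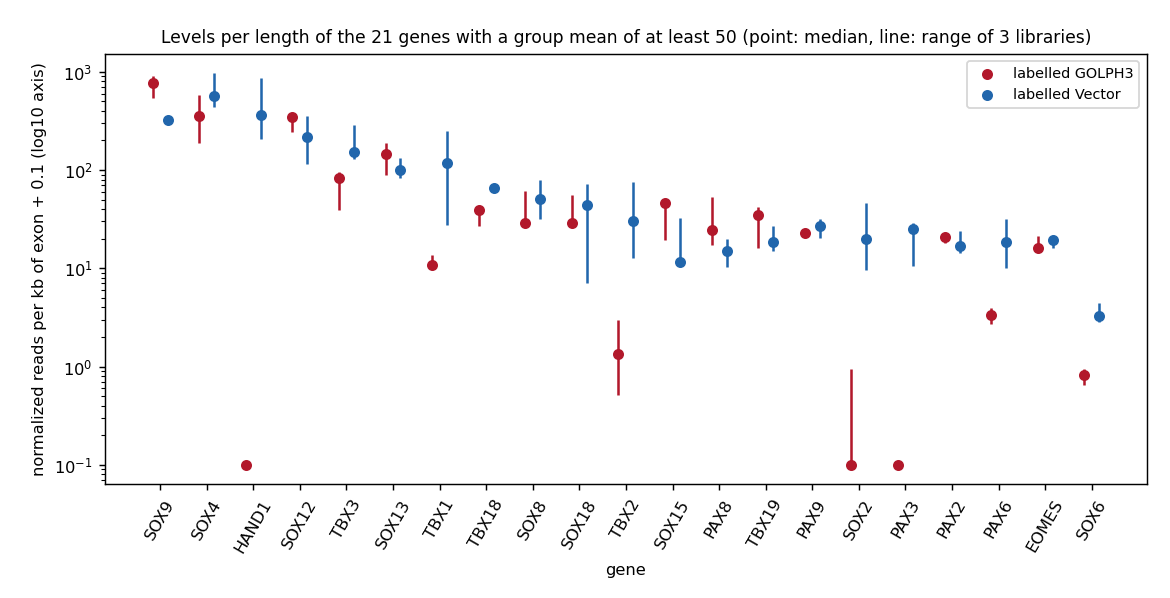
Level per length, in normalized reads per kilobase of exon plus 0.1 on a log10 axis, for the 21 factors with a mean of at least 50 normalized reads in a group, with a point at the median and a line over the range of 3 libraries. SOX9 is highest under the GOLPH3 label, with a mean of 745, and SOX4 is highest under Vector, with a mean of 657.

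Levels of different genes can be compared per length of exon. Under the GOLPH3 label the order of mean levels per kilobase of exon began with SOX9 at 745, SOX4 at 374, SOX12 at 317 and SOX13 at 140. The libraries of SOX9 and SOX4 overlapped, as did those of SOX4 and SOX12, while every library of SOX12 was above every library of SOX13. These are ranges over libraries, and genes were not compared within each library. Under Vector the order began with SOX4 at 657, HAND1 at 480, SOX9 at 326, SOX12 at 228 and TBX3 at 190. Each of these 5 overlapped with the next. HAND1 was thus among the most abundant of the factors under Vector and without reads under GOLPH3.

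T-box genes are grouped by descent. TBX1, TBX10, TBX15, TBX18, TBX20 and TBX22 form the TBX1 subfamily, known from the pharynx, face, limb and heart. TBX1 (ENSG00000184058, chr22:19756703-19783593, plus strand), the pharyngeal arch factor, had 38.6, 48.7 and 38.4 normalized reads in the GOLPH3 libraries and 418, 98.6 and 899 in the Vector libraries. It fell by 2.97 on the log2 scale (SE 0.64, adjusted p = 0.0176), and its Vector libraries differed by 9.11-fold between replicates 3 and 2. Without GOLPH3 replicate 3, Vector replicate 1 or Vector replicate 3 the adjusted p of TBX1 was 0.055, 0.0773 and 0.0885, with log2 fold changes from -2.26 to -2.92. TBX20 (ENSG00000164532, chr7:35202430-35254147, minus strand), a heart factor, had no read under the GOLPH3 label and 43.2, 21.9 and 45.5 normalized reads under Vector, at least 11.5-fold lower (fitted log2 fold change -5.17, SE 0.61, adjusted p = 0.000211). TBX18, a factor of the epicardium and sinus node, had 339, 332 and 225 normalized reads against 554, 616 and 538. The groups did not overlap, but the log2 fold change of -0.95 missed the threshold (SE 0.30, adjusted p = 0.11). TBX10 reached at most 3.30 normalized reads, TBX15 had 2.15 and 1.65 in a pair of GOLPH3 libraries and none elsewhere, and TBX22 had no read.

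TBX2, TBX3, TBX4 and TBX5 form the TBX2 subfamily of limb, heart and mammary factors, in which TBX2 and TBX3 act as repressors. TBX2 (ENSG00000121068, chr17:61399896-61409466, plus strand) had 17.2, 2.47 and 7.47 normalized reads under the GOLPH3 label and 180, 75.6 and 457 under Vector. It fell by 4.51 on the log2 scale (SE 0.73, adjusted p = 0.00242), with no overlap between the groups. TBX3 (chr12:114670254-114684164, minus strand) had 568, 233 and 489 normalized reads against 915, 776 and 1695. Its groups did not overlap either, but the log2 fold change of -1.40 missed the threshold (SE 0.40, interval -2.29 to -0.52, adjusted p = 0.0744). DESeq2 on the recovered reads gave TBX3 an adjusted p of 0.0214. TBX4, the hindlimb factor that follows TBX2 on chromosome 17 at a gap of 42937 bp, had 14, 4.12 and 6.4 normalized reads against 3.09, 2.19 and 10.3 (log2 fold change 0.65, adjusted p = 0.695). TBX5, which lies 261811 bp from TBX3 on chromosome 12, reached at most 3.20 normalized reads and was not tested. In each of these neighbouring pairs one gene had at least 75.6 normalized reads in every Vector library and the other at most 10.3.

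The remaining T-box genes did not pass the test. EOMES and TBR1, factors of the early embryo and cortex, belong to the TBR1 subfamily with TBX21, which directs T helper cells. EOMES had 58.0, 58.5 and 76.9 normalized reads against 58.7, 76.7 and 71.2, a log2 fold change of -0.10 with an interval from -0.97 to 0.77 (adjusted p = 0.928). TBR1 stayed between 2.57 and 20.8 and TBX21 between 0 and 9.44 normalized reads. TBX19, a pituitary factor, had 154, 58.5 and 127 normalized reads against 67.9, 98.6 and 54.9 (log2 fold change 0.54, adjusted p = 0.60). TBX6, a factor of paraxial mesoderm, stayed between 5.48 and 33.1 normalized reads.

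Counted by overlap instead of by a test, 16 of the 36 tested factors had every Vector library above every GOLPH3 library, and 2 had the reverse order. Over all 26536 genes tested, 12.8% and 9.2% had these orders. The 16 were the 13 called genes with SOX7, TBX3 and TBX18, and the 2 were SOX9 and SOX10. An exact two-sided permutation test of 3 libraries against 3 cannot give a p below 0.1, so it could not reach 0.05 for any single gene. The 9 factors that were not tested were PAX4, SOX1, SOX3, SOX11, SOX14, SOX17, TBX5, TBX15 and TBX22, and 6 of them had no read in any library.

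Vector replicate 2 was often the lowest of the Vector libraries and replicate 3 the highest. All 13 lower genes were lowest in replicate 2, and 12 of them were also highest in replicate 3, SOX6 being the exception with its highest value in replicate 1. The other 23 tested factors had this order in 12 cases (52.2%), SOX4, SOX12 and TBX3 among them. All 26536 genes tested had it in 25.1% of cases, against 92.3% of the lower genes. The order was thus more frequent among the 13 factors that fell than in the other sets given, and it also occurred outside them. Its share among all genes that fell is not given here, so it is not shown to be particular to these factors. The ratio of replicate 3 to replicate 2 was 2.08 for TBX20, 9.11 for TBX1 and 11.8 for PAX7. For HAND1 it was 4.22. Every lower gene stayed above its GOLPH3 libraries in each Vector library, which groups without overlap already imply. PAX7 came closest to the limit, at 2.19 normalized reads in Vector replicate 2 and 1.07 in GOLPH3 replicate 3. Both values are under 3 reads, so they cannot be told apart.

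The label carries the same P number in both groups at P12 and P13, which gives a pair of libraries at each. Within these pairs the log2 difference of HAND1 was -9.30 at P12 and -10.57 at P13, that of PAX3 -7.63 and -7.83, and that of SOX2 -5.66 and -6.86. All 13 lower genes were negative in both pairs, as they had to be, since their groups do not overlap. SOX9 was positive in both for the same reason, at 0.67 and 1.51. Over the 36 tested factors 20 were negative in both pairs and 6 positive in both. The shares of all genes with these signs are not given here. The median of the factors was -0.77 at P12 and -1.12 at P13, against 0.00 and -0.01 for all genes tested. The libraries at P8 and P11 have no counterpart, and with 1 library a side no test was made within a pair.

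**Figure D4:**
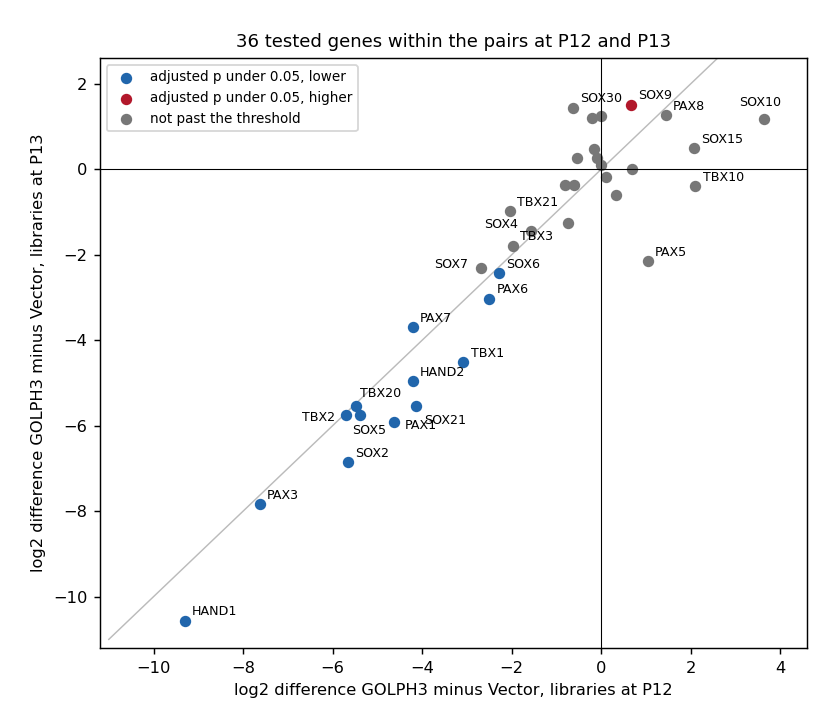
Log2 difference, GOLPH3 minus Vector, between the libraries at P12 (horizontal) and at P13 (vertical) for the 36 tested factors, with blue for lower, red for higher and grey for not past the threshold, and a grey line where both are equal. The 13 blue points lie in the lower left from PAX6 and SOX6 down to HAND1, and SOX9 lies in the upper right.

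Antisense and other neighbouring transcripts were read beside these genes, for which reads from overlapping strands cannot be told apart because the strand setting of the counting is not stated. Of the 45 factors, 28 had a gene that overlapped them or started within 5000 bp, and 20 of these 50 neighbours could be tested. Of those, 4 fell and 0 rose in the limma test, against 4.12% and 0.953% of all genes tested. All 4 were among the 8 tested neighbours that lay beside a factor that fell. SOX21-AS1, which starts 317 bp from SOX21 on the other strand without overlapping it, had 0, 0.825 and 0 normalized reads against 43.2, 39.4 and 71.2 (log2 fold change -5.37, adjusted p = 0.000153). PAUPAR, a long non-coding RNA that overlaps PAX6 on the other strand, had no read against 21.6, 3.29 and 28.3 normalized reads (adjusted p = 0.0126). TBX2-AS1 had 1.07, 0.825 and 1.07 normalized reads against 23.7, 8.76 and 65.2 (adjusted p = 0.0114). HAND2-AS1 had no read against 11.3, 2.19 and 9.44 (adjusted p = 0.034).

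The other 4 tested neighbours of lower genes did not pass the test. ELP4, an Elongator subunit gene that overlaps PAX6, had 275, 139 and 194 normalized reads against 392, 457 and 292 (adjusted p = 0.186). C11orf58, which overlaps SOX6, and GNB1L, which overlaps TBX1, had log2 fold changes of -0.55 and 0.38. SOX2-OT, the long non-coding RNA that spans SOX2 on the same strand, stayed between 0.825 and 9.26 normalized reads, with a log2 fold change of -0.90 (adjusted p = 0.577). Beside the gene that rose, SOX9-AS1 had a log2 fold change of 1.11 (adjusted p = 0.386).

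Proteins that work with these factors were examined in 5 lists of 54 genes, of which 50 could be tested, 22 fell and 0 rose, with a median log2 fold change of -1.12. Over all genes tested, 4.12% fell and 0.953% rose, with a median of 0.02. These lists were chosen with earlier results of these data known, so they are not independent support. The list of 12 genes from the network in which EYA and DACH proteins act with PAX proteins had 7 of 11 tested genes lower and a median of -3.11 (-2.66 with genes without reads at their lower bound). DACH1 had no read under the GOLPH3 label and 320, 190 and 484 normalized reads under Vector, at least 103-fold lower (adjusted p = 3.34e-06). EYA1, whose product is a phosphatase and a transcriptional coactivator, had 0, 0.825 and 0 normalized reads against 143, 57.0 and 130 (adjusted p = 4.26e-05). EYA2, its relative, had no read against 90.6, 34.0 and 107 normalized reads (adjusted p = 7.49e-05).

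The basic helix-loop-helix partners and inhibitors of HAND proteins had 3 of 9 tested genes lower and a median log2 fold change of -0.95. ID4, an inhibitor that binds such partners without binding DNA, had 12.9, 10.7 and 3.20 normalized reads against 1943, 767 and 2304 (log2 fold change -7.42, adjusted p = 6.46e-06). TCF4, an E protein with which HAND proteins can pair, had 0, 0.825 and 0 normalized reads against 227, 172 and 360 (adjusted p = 6.48e-06). TWIST2 had no read against 82.3, 36.2 and 145 (adjusted p = 7.62e-05), so it shared the pattern of HAND1 and HAND2.

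The GATA, NKX and MEF2 factors, partners of T-box and HAND proteins in the heart, had 6 of 15 tested genes lower and a median of -1.91. GATA4, a factor of heart and endoderm, had no read under the GOLPH3 label and 217, 83.3 and 474 normalized reads under Vector, at least 80.1-fold lower (adjusted p = 1.95e-05). NKX2-5, a heart factor, had 0, 3.30 and 0 normalized reads against 335, 149 and 803 (adjusted p = 4.36e-05). GATA5, a relative of GATA4 in heart and gut, had 0, 0 and 1.07 against 64.8, 23.0 and 185 (adjusted p = 0.000618). The POU partners of SOX proteins had 5 of 9 tested genes lower and a median of -2.39 (-1.52 with bounds). POU4F1, a factor of sensory neurons, had 0, 0 and 1.07 normalized reads against 454, 197 and 873 (adjusted p = 7.69e-06). POU3F3 had no read against 107, 59.2 and 223 (adjusted p = 3.25e-05). POU3F2, a neural factor that acts beside SOX2, had 9.66, 0 and 0 normalized reads against 72.0, 46.0 and 244 (adjusted p = 0.00387). The TLE corepressors, which PAX proteins can recruit, had 1 of 6 genes lower and a median of 0.44. That gene was TLE4, with no read against 626, 363 and 1165 normalized reads, at least 223-fold lower (adjusted p = 2.18e-06).

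**Figure D5:**
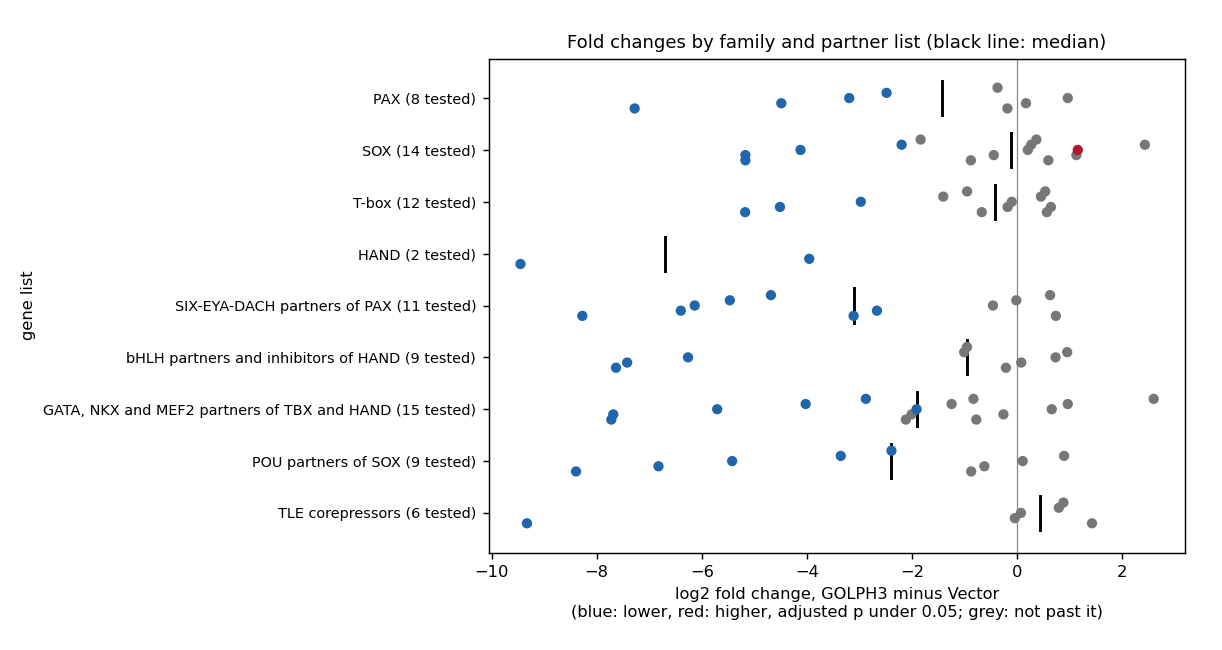
Log2 fold change, GOLPH3 minus Vector, of each tested gene listed from the 4 families and in the 5 partner lists. Blue is for lower, red for higher and grey for not past the threshold, with a black line at the median. Medians run from -6.70 for HAND to 0.44 for the TLE corepressors, and every list has at least 1 blue point.

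Markers of other cell types were read beside these results. A list of 10 genes that are prominent in HEK293, a human embryonic kidney line, had 5 of 7 tested genes lower, with a median log2 fold change of -8.60 (-8.03 with bounds). IRS4, the most abundant of them that fell, had no read under the GOLPH3 label and 1412, 1006 and 4831 normalized reads under Vector, with the same order of Vector libraries as HAND1. UCHL1 had no read against 1173, 415 and 1757 normalized reads, in the same order, and NEFM none against 346, 501 and 612, in another order. TCEAL2 had no read in any library, and BEX1, INA and LHX1 reached at most 3.09 normalized reads in any, so 4 of the 10 markers were at or near 0 in both groups. The sum of the list was 6124 to 11289 under the GOLPH3 label and 7185 to 27721 under Vector, most of it from CKB, which did not pass the test (adjusted p = 0.753).

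The colon epithelial list of 12 genes had 2 of 10 tested genes higher and 0 lower, and its sum was 62856 to 134429 under the GOLPH3 label and 30018 to 41155 under Vector. Most of this sum came from the keratins KRT8, KRT18 and KRT19. EPCAM and CDH1 were higher in every GOLPH3 library and CDX2 overlapped between groups, and none of these passed the test. VIL1, CDX1, LGALS4, CDH17 and MUC2 reached at most 9.66 normalized reads in any library. Of the neural crest and neuronal list of 10 genes 1 of 5 tested genes fell, with sums of 191 to 616 and 164 to 240. The one that fell was GAP43, with no read under GOLPH3 against 6.18, 5.48 and 14.6 normalized reads, while TUBB3 had 235, 110 and 519 against 58.7, 172 and 75.5 and did not pass the test, and PHOX2A and ELAVL4 had no read in any library. Of the fibroblast list of 9 genes 1 of 6 tested genes fell, with sums of 825 to 1517 and 488 to 811, most of each from COL1A1. The one that fell was PDGFRA, with 0, 0.825 and 0 normalized reads against 5.15, 7.67 and 24.9, while COL1A1 had 466 to 1499 over the 6 libraries without passing the test, and DCN had no read. Of the endothelial list of 8 genes 0 passed the limma test, with sums of 248 to 299 and 185 to 296, most of each from ESAM. The part of other cells in the fall of the PAX, SOX, T-box and HAND genes was not tested, and the line and the label cannot be told apart because each label is a single stable line.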

How the data were processed

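The deposited signal is 1 value per gene and library, which the authors made from sorted alignments. The submitters' processing notes name fastp 0.20.0, HISAT2 2.1.0, Cufflinks, featureCounts 1.6.1, DESeq2 and GRCh38, with no role or order, and the annotation, strand setting and treatment of multi-mapping reads are not given in the sources used here. Every nonzero value was a whole multiple of 1 step per library within a tolerance of 0.01, so the values are reads divided by a size factor. The table had 60590 rows for 60546 identifiers, and 44 repeated rows were summed with the first row of their identifier. Gene coordinates and exon lengths are from GENCODE 29 on GRCh38, which held 58367 of the identifiers.

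limma 3.58.1 in R 4.3.3, with a mean-dependent prior variance, was applied to log2(value + 1) for genes that reached 1 in 3 or more libraries, without a block, and p-values were adjusted over all of them by the Benjamini-Hochberg method. Fold changes of low genes are understated on this scale. A lower bound is the Vector mean over 3 reads in the GOLPH3 library with the highest such limit, and it leaves out the spread between Vector libraries. Ratios from pooled reads have exact 95% binomial intervals. The scripts were tested on simulated data. The alternatives were quantile and TMM scaling, no filter, a stricter filter, a pseudocount of 0.1, DESeq2 1.42.0 and edgeR 4.0.16 on the recovered reads, the replicate number and the P number as blocks, and each library left out.

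The members and the partner and marker lists were chosen with earlier results of these data known. Values in every library are given for members with an adjusted p under 0.05 or a group mean of at least 50, for others the range or the values an order needs, and of each partner list at most 3 called genes with the smallest p are named. SOX7, SOX10, SOX3, TBX4 and TBX15 are named with values to account for an order or an exception. Some genes of the lists are not reported here by name.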

Additional observations from a re-analysis of the deposited data

Results flagged for a closer look

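Within the pairs of libraries that share a P number, 5 factors with a group mean of at least 50 normalized reads moved one way at P12 and the other way at P13, which is what drew attention to them. The log2 difference, GOLPH3 minus Vector, of PAX2 was 0.11 at P12 and -0.18 at P13. That of PAX9 was -0.54 and 0.26. That of SOX13 was -0.17 and 0.48. That of TBX19 was -0.21 and 1.19, the widest gap of the 5. That of EOMES was -0.00296 and 0.11. Each pair has 1 library a side, so the difference between pairs was not tested, and none of the 5 passed the test over all libraries.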

How the results depend on the processing

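The count of 13 lower factors became 4 when a gene needed 1 normalized read in every library. This filter removes genes without reads under one label. Shares of all genes called in the alternatives of this section are not given here. The count of lower factors ranged from 3 to 13 when a library was left out. It was 3 without Vector replicate 1, 7 without Vector replicate 2 and 3 without Vector replicate 3, where genes read only under Vector no longer reach 3 libraries. With a minimum in 2 libraries, chosen after seeing the data, these were 10, 13 and 10. PAX1, PAX3, PAX6, SOX2, SOX5, SOX21, TBX2, TBX20, HAND1 and HAND2 passed in every alternative that tested them.

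The count of 1 higher factor was 2 under quantile normalization and at an unadjusted p under 0.05, 4 with the P number block, 0 with the filter on every library and 0 to 1 with a library left out. With the minimum in 2 libraries it was 0, 0 and 0 without Vector replicate 1, 2 and 3. With GOLPH3 above Vector in every library, 2 factors became 4 without GOLPH3 replicate 1 or 2 and 6 without Vector replicate 3, within 2 to 6.

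The 22 lower partner genes became 6 with the filter on every library and ranged from 8 to 21 with a library left out (9, 12 and 8 without Vector replicates 1, 2 and 3). The 0 higher became 5 with the P number block, 0 to 1 with a library left out, and 1 without Vector replicate 3 at the minimum in 2 libraries. The median log2 fold change of the PAX, SOX, T-box and HAND genes stayed between -0.91 and -0.10. Of 813 alternatives for single genes, 735 kept direction and call, 10 gained and 59 lost the call, and 9 turned the sign of a gene that was called in neither. SOX18 (0.27) became -0.17 by DESeq2 and edgeR, -0.49 with the P number block, -0.07 without GOLPH3 replicate 3 and -0.70 without Vector replicate 2 under both minimums, and ranged from -0.70 to 0.93 with a library left out. PAX2 (0.17) became -0.0355 and EOMES (-0.10) 0.0527 with the P number block, and EOMES became 0.16 under quantile normalization.

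Deviations of same-numbered replicates correlated at -0.23, -0.15 and 0.26, so replicate numbers did not pair the samples. With the replicate block 11 factors and 19 partner genes were lower and 0 factors higher. By P number the correlation was 0.26 at P12, 0.26 at P13 and 0.33 between the remaining P8 and P11. The P number block, which leaves 1 residual degree of freedom, called 17 factors and 29 partner genes lower. Depth limits levels under about 3 normalized reads.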
